A study of Coryphaena hippurus with 21 samples.

Results

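Mahi-mahi larvae raised in slick oil at 2% were compared with larvae raised in slick oil at 0.5%, a 4-fold step in nominal concentration within 1 oil. The comparison used the 3 libraries of each concentration and no control library. Its members were the 113 miRNA names that stood in the count tables of both concentrations with a count above 0 in all 6 libraries. The tables of these concentrations listed 246 names, 158 of them in both, and the 5 count tables read here listed 314. Counts were also summed by family number (miR-137, for example), which gave 85 family totals above 0 in all 6 libraries, of 121 families. The edgeR test, adjusted over all names or families, called no single name and no family total, whereas DESeq2 called 4 names and 2 families.

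MicroRNAs are short RNAs that guide Argonaute proteins to partly matching messenger RNAs, which are then repressed. Names with the same number come from related hairpin precursors, often made from several gene copies. Those from the same arm of the hairpin are close in sequence, so that their reads can be hard to assign to 1 name. The arms, marked -5p and -3p, differ in sequence, and sums by family number add both where both were listed (mdo-miR-24-3p and fru-miR-24-5p, for example). In fish larvae several families mark tissues, such as miR-206 in skeletal muscle, miR-9 and miR-124 in the nervous system, miR-126 in blood vessels and miR-144 in red blood cells. No miRNA name belonged to mahi-mahi itself. The prefix of a name gives the species of the matching entry (ola is medaka, ssa Atlantic salmon, dre zebrafish, hsa human), and the roles given here come from those and other vertebrates. They are given by family number, whichever arm a name carries.

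The embryos (Coryphaena hippurus) came from natural spawns of wild-caught broodstock and were placed in the exposure water soon after fertilization. The exposure water held a high-energy water-accommodated fraction (HEWAF), which is oil blended into seawater, and was not renewed. Slick oil is oil that was collected from the sea surface after the Deepwater Horizon spill. Whole larvae at 48 hours post fertilization were pooled for RNA, and the groups compared were slick 2% and slick 0.5%, with 3 libraries each of the 21 in the series. Levels in slick 1% and in control seawater (0%) are given as background, and the source oil groups at 0.5% and 0.125% form a second 4-fold step. Source oil is called mass in the sample titles and is identified from the series text, which mentions no oil other than slick and source. Whether the libraries within a group were separate beakers, or separate pools, is not stated in the labels, so every adjusted p measures only the spread between libraries. In such pools of whole larvae, fewer cells of a type and less miRNA per cell cannot be told apart.

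The slick 2% libraries (H4, H5 and H6) held 8284057, 3995199 and 3407490 counts, and the slick 0.5% libraries (L4, L5 and L6) held 8736995, 7692673 and 7790451. The 113 names took 64.6 to 86.6% of the counts at 2% and 68.2 to 84.4% at 0.5%. Of the 158 names in both tables, 45 were left out for a count of 0, and 27 of those had at least 1000 counts in another library. The first library of each table, H4 and L4, had no 0, whereas H5 and H6 had 58 and 51 names at 0 and L5 and L6 had 50 and 46. Markers of a whole larva were present. Per 1000000 counts of a library's total, the miR-206 name held 191721 to 353817 at 2% and 230317 to 323394 at 0.5%, and the leading miR-124 name held 133.2 to 193.99 at 2% and 99.5 to 172 at 0.5%. The miR-144 name held 134 to 155.2 at 2% and 161 to 213.9 at 0.5% on this scale, while no name of miR-451, which is made with miR-144 in red blood cells, was counted. Names of miR-1, miR-122 and miR-140 stood at 0 in at least 1 library of each group. The miR-1 name, of another muscle family, nevertheless reached 94600 at 2% and 82133 at 0.5% on the same scale.

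Over the step from 0.5% to 2% the profile of the larvae differed little compared with the spread between libraries. The log2 fold changes, 2% over 0.5%, ran from -1.75 to 1.85 with a median of -0.01. They were positive for 56 names and negative for 57, and their median size was 0.26. Only 7 names (6.19%) differed by more than a log2 fold change of 1 in size, and 2 of these 7, ssa-miR-137-5p and ola-miR-731, had groups that did not overlap. Of the other 5, efu-miR-29b lay between 2.39 and 9.23 CPM and ssa-miR-723-3p stood at or below 2.496 CPM in all 6 libraries. ola-miR-214 (log2 difference 1.04 ± 0.57 SE) had 177.5 CPM in H5 and 33.6 to 85.1 CPM in the other 5 libraries. A single 0.5% library stood above all others for mmu-miR-142b, with 34.4 CPM in L4, and for mmu-miR-466i-5p, with 62.1 CPM in L6. The edgeR quasi-likelihood test with Benjamini-Hochberg adjustment called 0 of 113 names (0%) at an adjusted p under 0.05. An unadjusted p under 0.05 was reached by 13 names (11.5%), 10 of them higher (8.85%) and 3 lower (2.65%) at 2%. DESeq2 called 4 names, which were ssa-miR-137-5p, ssa-miR-734-5p and ola-miR-101b-3p with higher levels and ola-miR-731 with a lower level at 2%. Among all 113 names the 3 libraries at 2% lay wholly on one side of the 3 at 0.5% for 22 (19.5%), 9 higher (7.96%) and 13 lower (11.5%).

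The intervals show which differences these libraries could have missed. For 72 of the 113 names (63.7%) the 95% interval of the log2 fold change lay within -1 and 1, so a difference of more than 2-fold fell outside the interval. The interval reached past this range for the other 41 names. The median interval reached 0.54 log2 units to either side of the estimate. These intervals rest on 3 libraries a group and take the libraries as separate samples. The spread between libraries was wider at 2%, with a median SD of 0.30 log2 units per name, than at 0.5%, with 0.21.

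**Figure D1:**
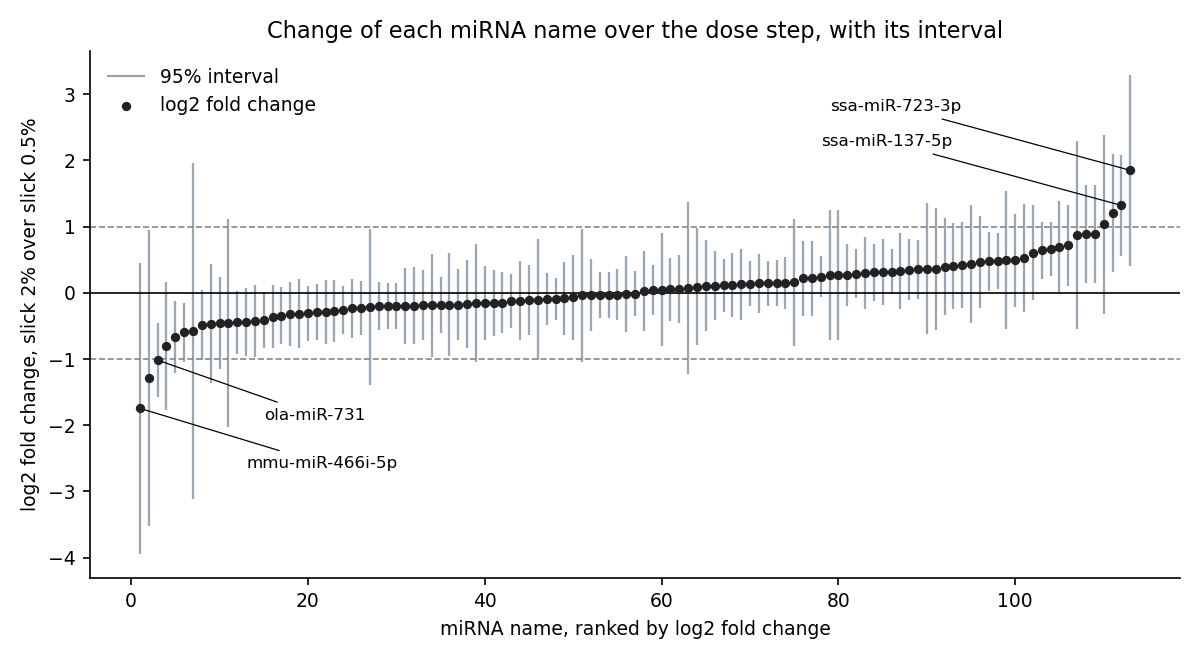
Log2 fold change of each of the 113 miRNA names, slick 2% over slick 0.5%, ranked from lowest to highest along the horizontal axis. Points are edgeR estimates, vertical lines their 95% intervals, and dashed lines mark -1 and 1. Most intervals include 0, and the estimates run from -1.75 to 1.85.

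Among the 10 most abundant names edgeR and DESeq2 called none, and the estimates differed in precision. Levels are given as CPM, counts per 1000000 counts on the 113 names after TMM scaling, for the libraries in the order 4, 5 and 6. The muscle name ssa-miR-206-5p had 293094, 440969 and 367849 CPM at 2%, against 300997, 322528 and 434679 CPM at 0.5%. The neural name aca-miR-9-5p had 390481, 299997 and 278721 CPM at 2%, against 259485, 286935 and 332264 CPM at 0.5%. Both ranges overlapped widely, with log2 fold changes of 0.06 ± 0.22 (SE) and 0.14 ± 0.19. The 95% interval was -0.46 to 0.58 for ssa-miR-206-5p and -0.30 to 0.58 for aca-miR-9-5p.

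The name ola-miR-21 had 58958, 54297 and 57644 CPM at 2%, against 60918, 59843 and 61107 CPM at 0.5%. All 3 libraries at 2% were below all 3 at 0.5%, by a log2 fold change of only -0.09 ± 0.13 with a 95% interval of -0.41 to 0.23. This miRNA is widely expressed in vertebrate tissues. Next in abundance, the miR-17-92 cluster name sha-miR-92a stood at -0.18 ± 0.18, the endothelial tgu-miR-126-5p at -0.16 ± 0.37, hsa-miR-25-5p at -0.10 ± 0.16, mdo-miR-128a-5p of a brain family at -0.44 ± 0.22 and cfa-miR-181b at 0.04 ± 0.16. None of these 5 names had groups that stood apart. In the other two of the 10 most abundant names a single library set the value. The name cgr-miR-26a had 677, 30913 and 33794 CPM at 2%, against 35219, 28067 and 34240.2 CPM at 0.5%, and chi-miR-182, of a sensory organ family, had 2542, 18926 and 17420 CPM at 2%, against 14529, 15866 and 22792 CPM at 0.5%. In both, H4 was far below the other 5 libraries, and the log2 fold changes were -0.58 ± 1.06 and -0.45 ± 0.66. In H4 another name of the miR-26 family, aca-miR-26-5p, held 151713 counts while cgr-miR-26a held 3670, whereas in H5 these names held 99234 and 99095.

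Among the neuronal miRNAs edgeR called none and DESeq2 called ssa-miR-137-5p. Of 16 names of this list, 10 had positive and 6 negative log2 fold changes, and the median was 0.13 against -0.01 over all 113 names. The groups did not overlap for 4 of them, 3 higher and 1 lower at 2%, where 22 of all 113 names (19.5%) had such groups. The furthest was ssa-miR-137-5p, of a family enriched in the brain that regulates neuronal maturation in mammals. It had 136.6, 84.5 and 67.1 CPM at 2%, against 32.3, 49.5 and 33.99 CPM at 0.5%. Every library at 2% was above every library at 0.5%, and H4 was the highest. The means were 96.1 ± 36.1 CPM at 2% and 38.6 ± 9.47 CPM at 0.5% (SD, n = 3 each). Its log2 fold change was 1.32 ± 0.32 with a 95% interval of 0.56 to 2.08, and it missed the threshold in edgeR (adjusted p = 0.240) and passed it in DESeq2 (adjusted p = 0.0089).

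The name ola-miR-124-5p, of the family that is the most abundant in neurons of many vertebrates, had 212.2, 188 and 143.01 CPM at 2%, against 130, 136.6 and 123.7 CPM at 0.5%. The groups did not overlap, with the lowest 2% library, H6, just above the highest 0.5% library (log2 fold change 0.48 ± 0.19, edgeR adjusted p = 0.336). A second name of the family, dre-miR-124-4-5p, had overlapping groups at 0.42 ± 0.27, and the rare sma-miR-124b-5p stood at -0.08 ± 0.23. The brain miRNA dre-miR-153b-5p had 167, 169 and 154 CPM at 2%, against 141.1, 124.5 and 128.02 CPM at 0.5%. These groups also stood apart, with a narrow spread in each (0.32 ± 0.14, edgeR adjusted p = 0.396).

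The name aca-miR-212-5p, of a family induced by neuronal activity in mammals, lay in the other direction. It had 202, 235 and 293 CPM at 2%, against 325, 303 and 340 CPM at 0.5%. All libraries at 2% were below those at 0.5% (-0.41 ± 0.18, edgeR adjusted p = 0.396). Its relatives ssa-miR-212a-5p (-0.12 ± 0.17) and aca-miR-132-5p (0.12 ± 0.20) had overlapping groups. The name ola-miR-218b, of a motor neuron family, had 2360, 2808 and 6899 CPM at 2%, against 7314, 6761 and 7025 CPM at 0.5%. Libraries H4 and H5 stood far below the 0.5% group and H6 stood among it, so the difference of -0.81 ± 0.41 rests on those 2 of the 3 libraries. In H4 and H5 another miR-218 name held more counts. The leading miR-218 name of each library, the one with the most counts, held 36638 counts in H4 and 24506 in H5. Its log2 fold change was -0.03 ± 0.14 with overlapping groups, scaled over the leading names of all families.

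Of the blood cell list edgeR called 0 of 7 names and DESeq2 called ola-miR-731, with a median of -0.29, 2 positive and 5 negative log2 fold changes. The list also took in the fish families miR-462 and miR-731, which are not used here as markers of blood cells. The furthest from 0 with groups that stood apart was ola-miR-731, which lies beside miR-462 in the genomes of teleost fish. It had 279, 225 and 347 CPM at 2%, against 702, 449 and 571 CPM at 0.5%. Every library at 2% was below every library at 0.5%, and the means were 284 ± 61.5 CPM at 2% and 574 ± 127 CPM at 0.5% (SD, n = 3 each). The log2 fold change was -1.02 ± 0.24 with a 95% interval of -1.58 to -0.46, the smallest p of the 113 names (edgeR adjusted p = 0.240, DESeq2 adjusted p = 0.0089).

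Its neighbour ola-miR-462 had 1528, 1196 and 1120.5 CPM at 2%, against 1095, 2318 and 1876 CPM at 0.5%. L4 was the lowest of the 6 libraries and L5 the highest, so the groups overlapped, and the log2 fold change was -0.46 ± 0.29 with a 95% interval of -1.15 to 0.23. The red blood cell name ssa-miR-144-3p had 205.4, 168 and 202 CPM at 2%, against 279.6, 208.2 and 216.5 CPM at 0.5%. Its groups stood just apart (-0.29 ± 0.18, edgeR adjusted p = 0.469). The names tgu-miR-142-5p and ola-miR-142, of a white blood cell family, held the same counts in all 6 libraries and stand for 1 measurement at 0.22 ± 0.24. They are the 2 positive names of the blood cell list, so this measurement enters its counts and median under both names. The rarer mmu-miR-142b had 34.4 CPM in L4 and 3.62 to 7.63 CPM in the other 5 libraries. The white blood cell name tgu-miR-155-5p stood at -0.04 ± 0.23.

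The names of miR-130, miR-301 and miR-454, whose precursors are related in vertebrates, mostly had negative log2 fold changes. Of 6 names edgeR and DESeq2 called 0, 5 were negative and 1 positive, with a median of -0.46. The groups did not overlap for 4, all lower at 2%, where 13 of all 113 names (11.5%) were lower with such groups. The most abundant, hsa-miR-130b-5p, had 3699, 3440 and 4084 CPM at 2%, against 6601, 4584 and 5781 CPM at 0.5%. The 2% libraries all lay below the 0.5% libraries (-0.60 ± 0.19, 95% interval -1.04 to -0.15, edgeR adjusted p = 0.281).

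The name dre-miR-301c-5p had 468, 635 and 691 CPM at 2%, against 1137, 717 and 989 CPM at 0.5%, again with no overlap (-0.67 ± 0.23, edgeR adjusted p = 0.281). In ssa-miR-301a-5p the 2% libraries were nearly equal, at 1335, 1347 and 1342 CPM, against 1783, 1378 and 1664 CPM at 0.5%. That difference was small, and L5 came close to the 2% group (-0.26 ± 0.15, edgeR adjusted p = 0.452). The name ipu-miR-130c had 288, 241 and 257 CPM at 2%, against 483, 300.2 and 317 CPM at 0.5% (-0.49 ± 0.22, edgeR adjusted p = 0.396). The remaining names were ola-miR-130c at -0.43 ± 0.23 and ccr-miR-454b at 0.27 ± 0.20, both with overlapping groups.

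The names of miR-29, miR-101, miR-148 and miR-152 all had positive log2 fold changes, with a median of 0.67. Of these 4 names edgeR called 0 and DESeq2 called ola-miR-101b-3p (adjusted p = 0.048). The name ola-miR-101b-3p, of a family that represses the histone methyltransferase EZH2 in mammals, had 82.7, 76.1 and 68.6 CPM at 2%, against 50.6, 50.6 and 42.8 CPM at 0.5%. The groups were well apart relative to their spread (0.66 ± 0.17, 95% interval 0.26 to 1.06, edgeR adjusted p = 0.240). The family total of miR-101, which adds ola-miR-101a-5p of the other arm, stood at 0.03 ± 0.50 with overlapping groups. In H6 ola-miR-101a-5p was at 0, against 1102 and 509 counts in H4 and H5 and 689 to 874 counts at 0.5%. That 0 lowers the H6 total. The higher estimate, called by DESeq2 but not by edgeR, belongs to the name ola-miR-101b-3p and not to the family total. The name ssa-miR-152-3p had 6236, 3993 and 2998 CPM at 2%, against 2265, 3073 and 2882 CPM at 0.5%. The groups overlapped, and H4 was the highest of the 6 libraries by a wide margin (0.69 ± 0.29, edgeR adjusted p = 0.396). In ola-miR-148 H4 was also the highest, at 10582.5 CPM (0.49 ± 0.29), and efu-miR-29b was rare, at 9.23, 9.05 and 4.20 CPM at 2%, against 2.39, 3.25 and 4.31 CPM at 0.5% (1.20 ± 0.38, edgeR adjusted p = 0.281).

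The miR-17-92 clusters, whose miRNAs promote cell proliferation in mammals, had 10 names, 0 called by edgeR or DESeq2, 7 positive and 3 negative, with a median of 0.42. The names ola-miR-19b and ssa-miR-19c-4-5p differed by at most 0.619% in any library. They are 1 measurement that enters these counts and the median under both names. The name ola-miR-19b had 793, 554 and 337 CPM at 2%, against 287, 353 and 269 CPM at 0.5%. H6 lay inside the 0.5% range and H4 was the highest (0.89 ± 0.31, edgeR adjusted p = 0.281). Library H4 was also the highest of the 6 for ola-miR-17 (6721 CPM, against 3072 to 4087 in the other 5), ola-miR-106a (3408 against 1463 to 2069), oan-miR-20a-5p (12654 against 5084 to 6706) and dre-miR-93 (2669 against 971 to 1541). For these 4 names H5 and H6 lay within or below the range of the 0.5% libraries.

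4 further names stood higher at 2% with groups apart. The name ssa-miR-734-5p, a fish miRNA, had 4758, 4392 and 3663 CPM at 2%, against 2309.7, 2976 and 2913 CPM at 0.5%. Its lowest 2% library was well above its highest 0.5% library (0.64 ± 0.18, 95% interval 0.21 to 1.07, edgeR adjusted p = 0.276). The pancreatic family name tgu-miR-217-5p had 2062, 2445 and 1756 CPM at 2%, against 1328, 1586 and 1562 CPM at 0.5% (0.48 ± 0.18, edgeR adjusted p = 0.281). In ola-miR-460-5p the groups nearly touched, at 27.1, 29.3 and 19.83 CPM at 2%, against 13.6, 19.80 and 13.1 CPM at 0.5% (0.72 ± 0.26, edgeR adjusted p = 0.281). The name ssa-miR-8159-5p stood at 0.15 ± 0.14.

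Of the endothelial and smooth muscle list edgeR and DESeq2 called 0 of 12 names, with a median of -0.04. In it fru-miR-24-5p and ssa-miR-24a-4-5p held the same counts, and ccr-miR-221 and gga-miR-221-5p differed by at most 1.07%. Each pair is 1 measurement that enters the median under both names. Only dre-miR-23a-3-5p of this list stood apart, at 748, 740.0 and 651 CPM at 2%, against 584, 596 and 626 CPM at 0.5% (0.24 ± 0.13, edgeR adjusted p = 0.438). Its relatives oar-miR-23b (0.29 ± 0.16) and ssa-miR-23b-5p (-0.23 ± 0.19) had overlapping groups. Lower at 2% and apart were ola-miR-187 (-0.44 ± 0.20), ssa-miR-22b-5p (-0.35 ± 0.18) and ssa-miR-7132b-5p (-0.23 ± 0.17). The let-7 names mse-let-7a and tca-let-7-5p, of a family that times development, differed from each other by at most 0.222%. As 1 measurement they had 5307, 5108 and 4935 CPM at 2% (mse-let-7a), against 5777, 5431.99 and 6402 CPM at 0.5%, and the groups stood narrowly apart (-0.20 ± 0.15).

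By edgeR none of the 21 lists of families by tissue or cluster held a called name, and by DESeq2 the neuronal list, the blood cell list and that of miR-29, miR-101, miR-148 and miR-152 held 1 each. In the blood cell list it was ola-miR-731, which is not used here as a marker of blood cells. Among the 10 lists of 4 or more names the median log2 fold change ran from -0.46 in miR-130, miR-301 and miR-454 to 0.67 in miR-29, miR-101, miR-148 and miR-152. The muscle list (3 names) had a median of 0.06 with 0 called, the let-7 list (5 names) had -0.20, the eye and sensory organ list (4 names) -0.02 and the liver, gut and pancreas list (4 names) 0.08. In muscle, rno-miR-133b-5p stood at 0.52 ± 0.34 and ggo-miR-499a, a miRNA carried in a myosin gene, at -0.20 ± 0.24. Other names that earlier work on these files set apart from control also had overlapping groups over the step. They were ssa-miR-181b-5p (0.31 ± 0.18), hsa-miR-181b-2-3p (-0.18 ± 0.22), aca-miR-34b-5p, of a family that p53 activates in mammals, (0.30 ± 0.23), the smooth muscle name oan-miR-145-5p (-0.46 ± 0.38) and ipu-miR-107b, which stood at 0.37 ± 0.39 and at -0.69 when its repeated lines were summed, and at -0.16 without H4. The repeated line of ipu-miR-107b stood only among the 0.5% counts, so the sum raised that group alone.

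**Figure D2:**
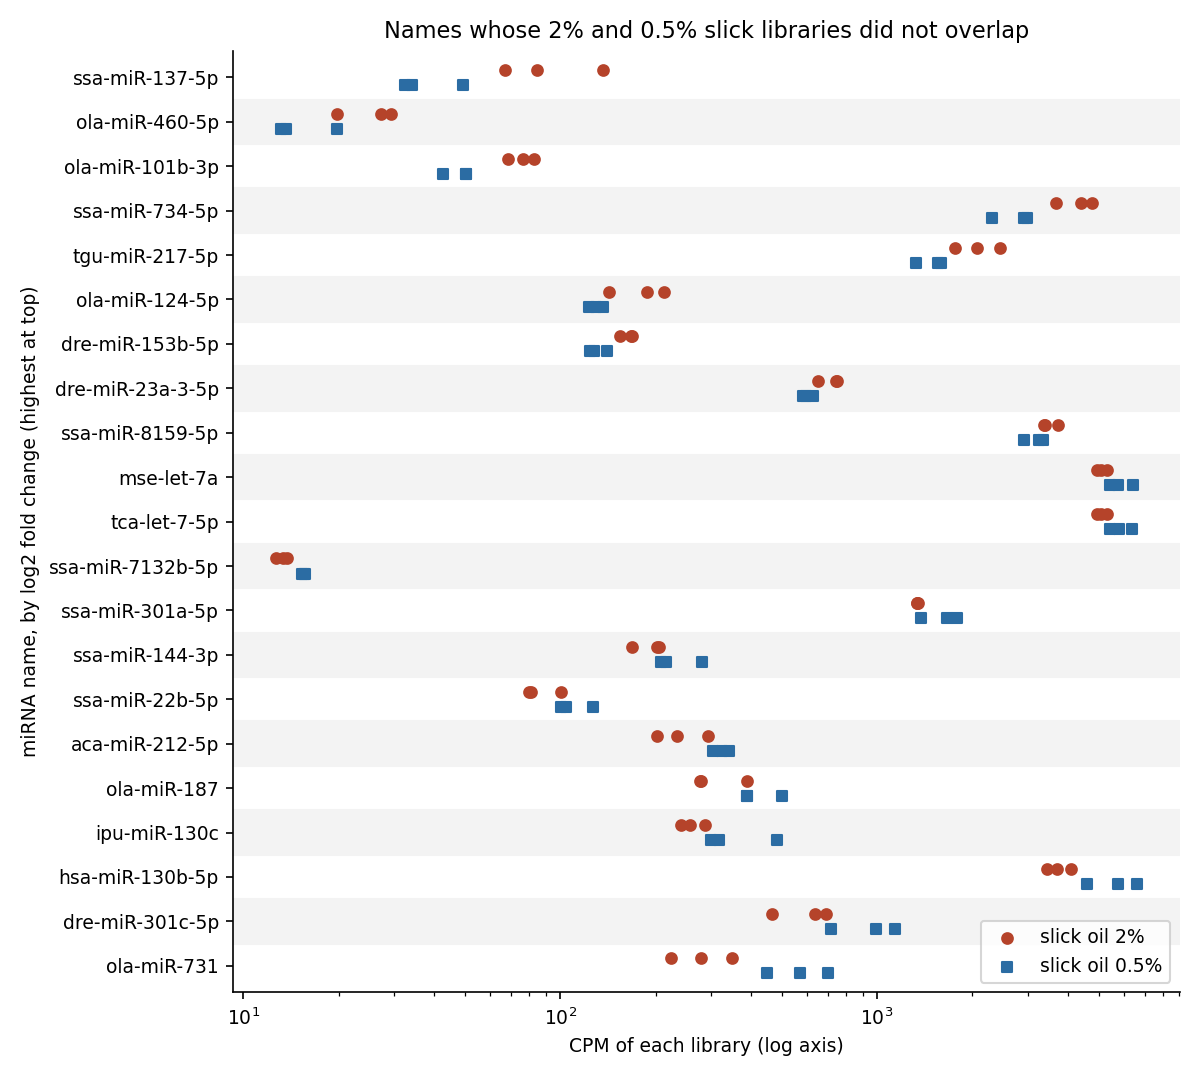
CPM of each library on a log axis for 21 of the 22 names whose groups did not overlap (ola-miR-21, at a far higher level, is left out), ordered by log2 fold change with the highest at the top. Red circles are the 3 slick 2% libraries and blue squares the 3 slick 0.5% libraries. The gap between the groups is wide relative to their spread for ola-miR-101b-3p and narrow for ola-miR-460-5p, where 19.83 CPM at 2% stands next to 19.80 CPM at 0.5%.

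The 6 libraries did not sort by concentration. The median absolute difference in log2 CPM over the 113 names was 0.20, 0.18 and 0.215 between H6 and L4, L5 and L6, smaller than between H6 and its own group, at 0.27 to H5 and 0.46 to H4. Pairs of 0.5% libraries differed by 0.24 to 0.28. Library H4 differed from the others by 0.35 to 0.52, and on the first principal component, which held 56.6% of the variance, it lay at 7.59. Libraries H5 and H6 lay at 1.00 and -2.17, and L4, L5 and L6 lay at -3.04, -0.66 and -2.72. The numbers of calls moved with these libraries. Without H6 edgeR called 7 names, 5 higher and 2 lower, and 26 had an unadjusted p under 0.05. The 7 were ssa-miR-137-5p, ola-miR-19b, ssa-miR-19c-4-5p, efu-miR-29b and ssa-miR-723-3p with higher levels and ola-miR-731 and ola-miR-218b with lower levels. Of these, ola-miR-19b and ssa-miR-19c-4-5p are 1 measurement under both names. That fit has 2 libraries at 2%, and in it ssa-miR-723-3p rests on 12 and 8 counts at 2%, against 4, 2 and 3 counts at 0.5%. For ola-miR-218b those 2 libraries are H4 and H5, where another miR-218 name held more counts. With any one of the other 5 libraries left out the number of calls was 0. Depth also differed, since H5 and H6 held fewer counts than H4 and the 0.5% libraries, and its part in these differences was not tested.

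**Figure D3:**
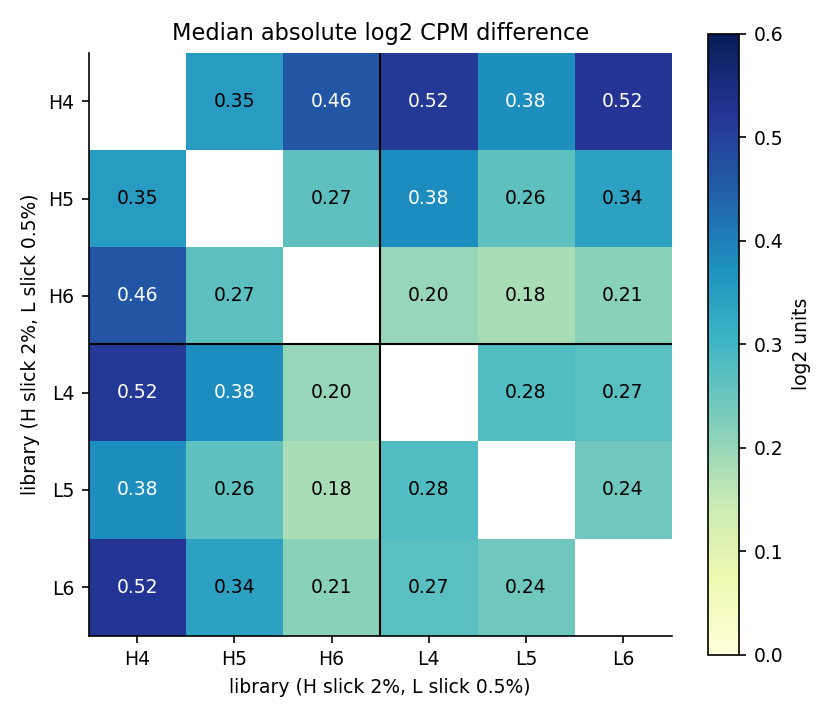
Median absolute log2 CPM difference over the 113 names for each pair of libraries (darker blue is a larger difference; H are slick 2%, L slick 0.5%). H6 differs from the 0.5% libraries by 0.18 to 0.215 and from H4 by 0.46.

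The 2% and 0.5% groups were also set beside unexposed larvae. Levels of the names counted in all 12 libraries of control and the 3 slick concentrations are given without a test, scaled over these libraries. The median absolute log2 ratio of group means over these names was 0.26 for 2% over 0.5%, 0.47 for 2% over control, 0.29 for 1% over control and 0.39 for 0.5% over control. At 2% the groups did not overlap with control for 45 names (42.1%), 23 above and 22 below, and at 0.5% for 52 names (48.6%), 23 above and 29 below. Both comparisons with control share the same 3 control libraries.

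Several names that differed from control by more than 2-fold at both concentrations had close levels in these. The endothelial name oar-miR-23b averaged 207 ± 31.2 CPM in control, 703 ± 39.3 CPM at 0.5%, 523 ± 102.7 CPM at 1% and 860 ± 120 CPM at 2% (SD, n = 3 each). The name sha-miR-92a averaged 12015 ± 1624 CPM in control, 31001 ± 2366 CPM at 0.5%, 17733 ± 2726 CPM at 1% and 27460 ± 4514 CPM at 2%. The myosin-linked ggo-miR-499a averaged 2006 ± 315 CPM in control, 764 ± 54.8 CPM at 0.5%, 1439 ± 313 CPM at 1% and 669 ± 208.01 CPM at 2%. In all 3 the 1% group lay between control and the other two, and the 2% and 0.5% libraries overlapped. The name ssa-miR-144-3p had the same order, at 511 ± 65.4 CPM in control, 245 ± 42.1 CPM at 0.5%, 322 ± 23.4 CPM at 1% and 200.4 ± 20.9 CPM at 2%.

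Other names stood apart at 2% from both control and 0.5%. The name ssa-miR-137-5p had 28.7 to 40.4 CPM in control, 33.9 to 51.2 CPM at 0.5%, 37.1 to 93.4 CPM at 1% and 70.3 to 141.99 CPM at 2%. Control and 0.5% overlapped, and 2% lay above both. In ssa-miR-734-5p control had 1569 to 1656 CPM, 0.5% had 2424 to 3078 CPM, 1% had 1909.7 to 3375 CPM and 2% had 3839 to 4947 CPM, so that the 1% libraries spanned the 0.5% range. The name ola-miR-731 had 502 to 630 CPM in control, 464 to 737 CPM at 0.5%, 326 to 496 CPM at 1% and 236 to 364 CPM at 2%, with control and 0.5% overlapping and 2% below both.

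The name ola-miR-101b-3p followed another course. Control had 90.5 to 124.3 CPM, 0.5% had 44.9 to 53.1 CPM, 1% had 89.0 to 154 CPM and 2% had 71.9 to 86.0 CPM, so that 0.5% was the lowest group and 2% lay between it and control. The name ola-miR-124-5p was also lowest at 0.5%, with 170 to 182.97 CPM in control, 130 to 141.3 CPM at 0.5%, 159 to 301.3 CPM at 1% and 150 to 220.7 CPM at 2%. In hsa-miR-130b-5p the 0.5% libraries were above control (4742 to 6927 against 3247 to 4226 CPM), and the 2% libraries, at 3607 to 4280.3 CPM, overlapped with control.

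**Figure D4:**
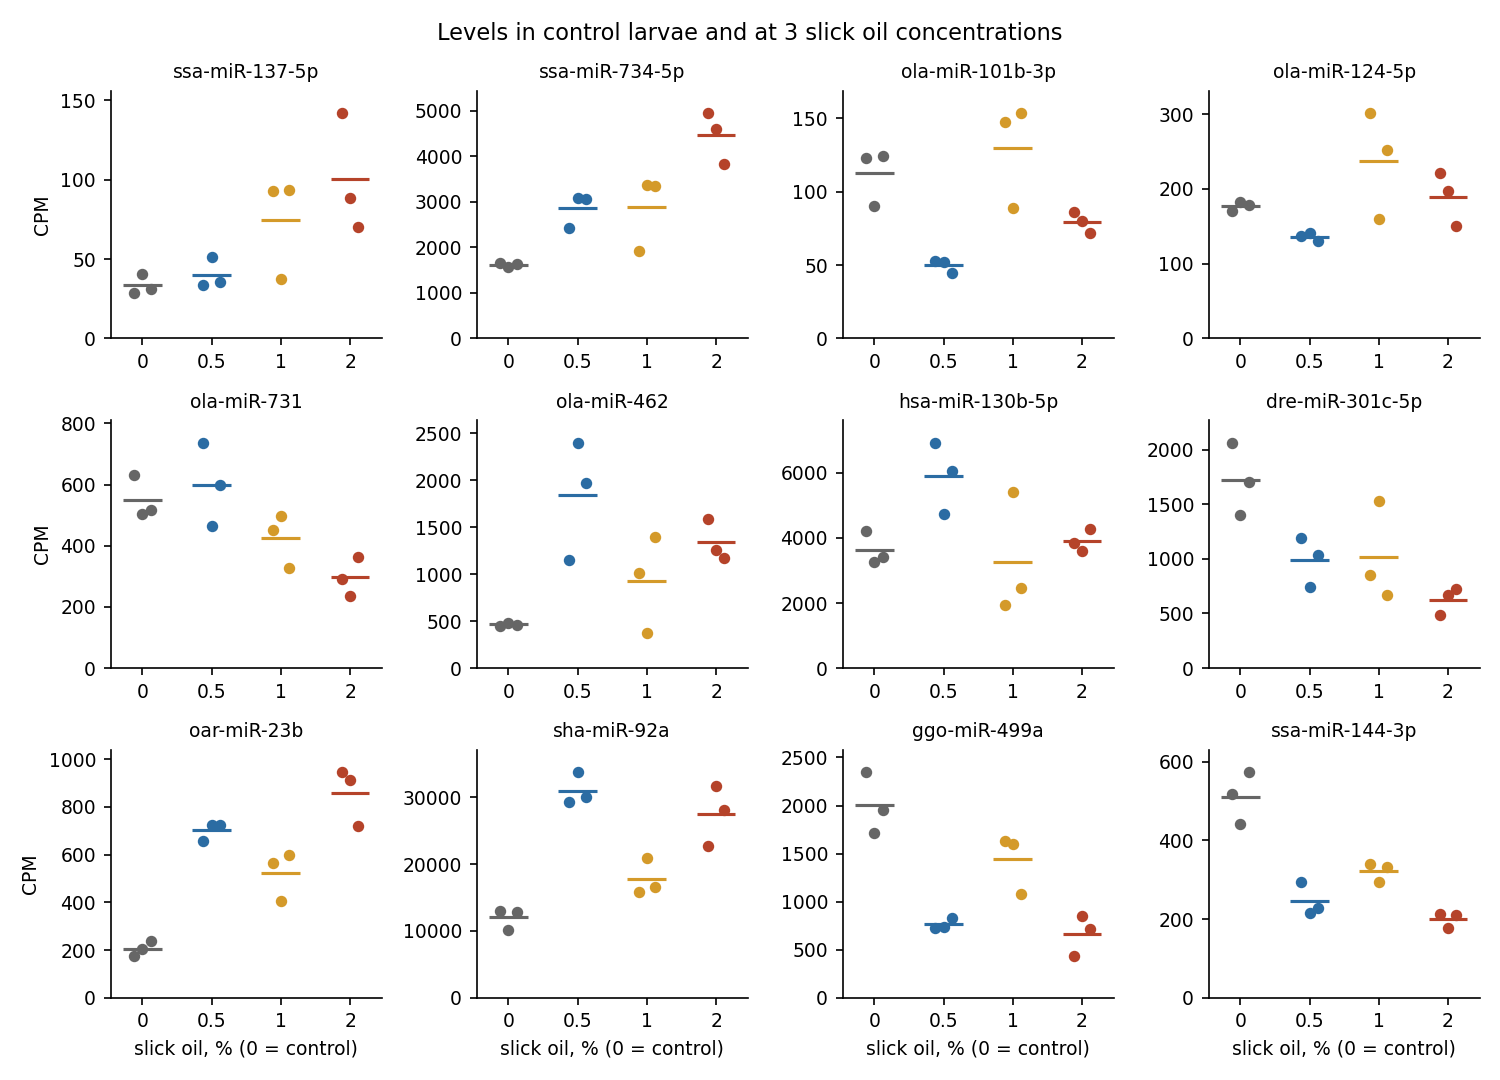
CPM (scaled over 12 libraries, linear axes from 0) of 12 miRNA names in control larvae and at slick oil 0.5, 1 and 2%. Points are libraries, 3 a group, and horizontal lines are group means. The 2% points lie above the 0.5% points for ssa-miR-137-5p and ssa-miR-734-5p and below them for ola-miR-731, and both groups overlap for oar-miR-23b, sha-miR-92a and ggo-miR-499a.

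Family totals gave no call either. These plain totals add the counts of all names of a family, with names that had the same counts in every library of a table entered once. The edgeR quasi-likelihood test called 0 of 85 families (0%), 8 had an unadjusted p under 0.05 (9.41%; 5 higher, 5.88%, and 3 lower, 3.53%), and DESeq2 called 2, miR-137 and miR-731. The groups did not overlap for 14 families (16.5%), 3 higher (3.53%) and 11 lower (12.9%) at 2%. On the scale of family totals miR-731, which has 1 name, stood at -1.09 ± 0.24 (edgeR adjusted p = 0.353), miR-130 at -0.65 ± 0.20 (0.445) and miR-734 at 0.56 ± 0.21 (0.445). The miR-137 family had 152.9, 71.0 and 54.5 CPM at 2%, against 26.2, 42.3 and 28.8 CPM at 0.5%, a log2 fold change of 1.52 ± 0.45 (edgeR adjusted p = 0.445). Its H4 total held 383 counts of rno-miR-137-5p, a name that stood at 0 in H5 and H6 and that the 0.5% table did not list. The totals of miR-301 (-0.47 ± 0.20), miR-187 (-0.51 ± 0.22), miR-144 (-0.37 ± 0.18) and miR-212 (-0.37 ± 0.21) were lower at 2% and that of miR-217 (0.41 ± 0.22) higher, each with groups apart. With reads that stood under more than 1 name of a family counted once the groups of miR-301 (-0.37 ± 0.20), miR-187 (-0.40 ± 0.24), miR-144 (-0.26 ± 0.20) and miR-212 (-0.27 ± 0.23) overlapped, and those of miR-217 (0.50 ± 0.21) did not. The counts of these families were the same in both forms. Their values moved only because the scaling over all families changed. The most abundant totals, miR-206 (-0.01 ± 0.27) and miR-9 (0.05 ± 0.19), stood near 0. The miR-200 total, of an epithelial family, stood at -0.94 ± 0.46 with groups apart, and in H6 the name ssa-miR-200a-2-5p was at 0, against 47963 and 25731 counts in H4 and H5 and 70877 to 93430 counts at 0.5%.

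Some of these plain totals held the same reads under more than 1 name. In H4, ccr-miR-430 and hhi-miR-430a held 103917 and 103912 counts, whereas in H5 they held 0 and 60741, so these reads entered the total of that family, which clears maternal messenger RNAs in zebrafish embryos, under both names in H4 and under 1 in H5. Counts of names of 1 family within 2% of each other in a library were taken as shared reads. The repeated copies alone, beyond the first, made up 7.31, 3.38 and 8.07% of the counts in H4, H5 and H6. In L4, L5 and L6 they made up 11.7, 6.05 and 5.17%. When such counts entered once, the spread within both groups narrowed for miR-430, miR-181, miR-26 and miR-128. It widened in both groups for miR-9 and miR-21, for miR-21 to an SD of 3812 CPM at 2% and 2697 CPM at 0.5%, against 1663 and 1244 CPM in the plain totals. That widening depended on the scaling. Scaled over the 12 libraries of control and slick oil, the miR-21 SD narrowed from 3456 to 1710 CPM at 2% and from 5494 to 1832 CPM at 0.5%. On that scale the miR-9 SD widened at 2% (25419 to 39204 CPM) and narrowed at 0.5% (57963 to 41852 CPM). The miR-430 total was -0.10 ± 0.38 in the plain totals and 0.00 ± 0.17 with shared reads counted once. For miR-181 the values were -0.08 ± 0.36 and 0.02 ± 0.19, and for miR-26 -0.12 ± 0.49 and -0.03 ± 0.19. The total of miR-128, a brain family, was -0.82 ± 0.30 in the plain totals and -0.41 ± 0.25 with shared reads once.

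With shared reads once edgeR again called 0 of 85 families (0%), and 9 had an unadjusted p under 0.05 (10.6%), 7 higher (8.24%) and 2 lower (2.35%). Groups stood apart for 15 families (17.6%), 11 higher (12.9%) and 4 lower (4.71%), so the balance of higher and lower families was the other way from the plain totals. That balance depended in part on the scaling. The median log2 fold change over the 85 families was -0.03 in the plain totals and 0.07 with shared reads once. Families whose counts were the same in both forms, such as miR-187, miR-144 and miR-217, also had higher log2 fold changes in the second form. In this form miR-731 stood at -0.97 ± 0.26 and miR-137 at 1.61 ± 0.45 (both edgeR adjusted p = 0.316). The miR-10 total, of a family encoded in the Hox clusters, was 0.06 ± 0.17 in the plain totals and 0.88 ± 0.26 with shared reads once (edgeR adjusted p = 0.316). The names mdo-miR-10b-5p and sha-miR-10b held near-identical counts in H4 (14520 and 14495) and in the 0.5% libraries, but not in H5 (5974 and 11408) or H6 (6192 and 9259), so their reads were added in H5 and H6 alone. As single names they stood at -0.15 ± 0.19 and 0.35 ± 0.19, both with overlapping groups.

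**Figure D5:**
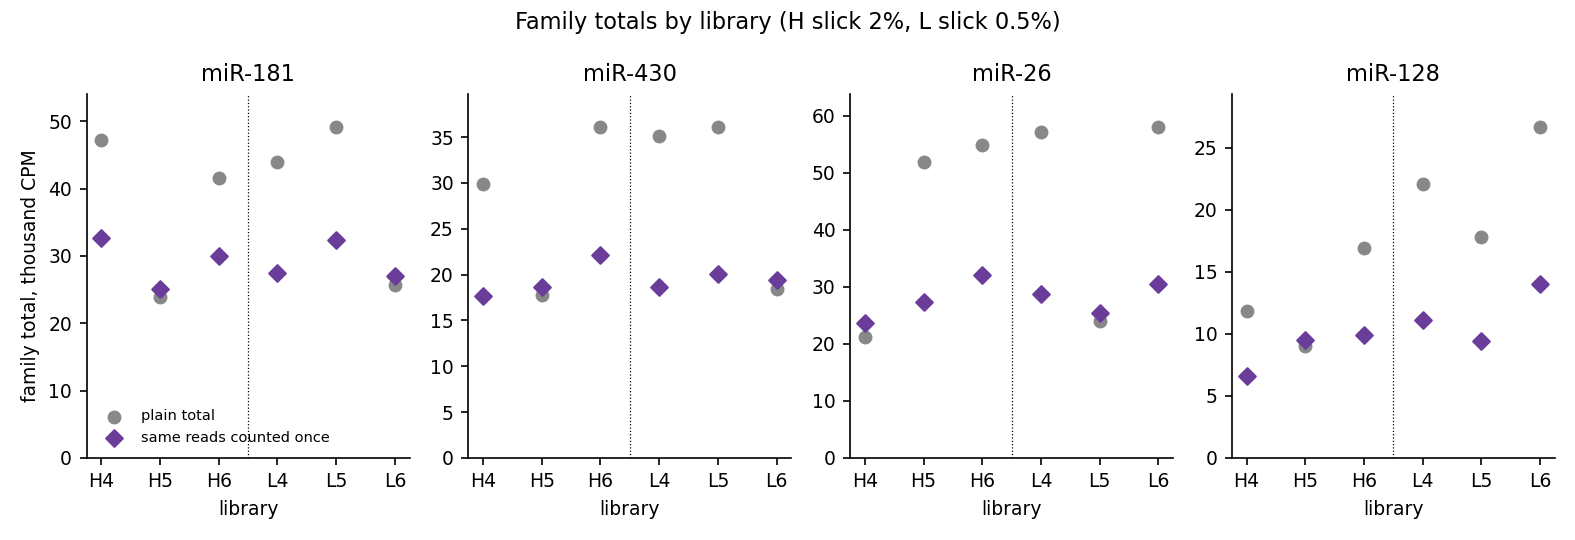
Totals of 4 families by library in units of 1000 CPM (H slick 2% left of the dotted line, L slick 0.5% right of it). Grey circles are the plain totals and purple diamonds count shared reads once. The circles of miR-181, miR-430 and miR-26 fall into a high and a low level within both groups, and the diamonds of these 3 families lie closer together.

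The 4-fold step in slick oil was set against the 4-fold step in source oil, 0.5% over 0.125%, with a test of the difference between the steps. These steps share no library, and the nominal concentrations differ between the oils. The edgeR quasi-likelihood test called 0 of the names counted in all 12 libraries (0%), with 12 (11.3%) at an unadjusted p under 0.05, and DESeq2 called 2 (ola-miR-731 and mmu-miR-466i-5p). The name ola-miR-731 had the smallest p. It averaged 250 ± 58.4 CPM in slick 2% and 503 ± 118 CPM in slick 0.5%, and 716 ± 121.7 CPM in source 0.5% and 584 ± 38.4 CPM in source 0.125% (SD, n = 3 each, scaled over these 12 libraries). Its step was thus negative in slick oil and positive in source oil, a difference of -1.30 ± 0.36 on the log2 scale (edgeR adjusted p = 0.277).

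The name ola-miR-187 differed in the same direction (-1.09 ± 0.40, edgeR adjusted p = 0.277), while ccr-miR-454b (2.52 ± 0.85) and ola-let-7g (2.80 ± 0.95) had steps in source oil far below those in slick oil. For ola-let-7g the levels were 1509 ± 300 CPM in slick 2% and 1872 ± 331 CPM in slick 0.5%, and 178 ± 81.8 CPM in source 0.5% and 1528 ± 1165 CPM in source 0.125%. Within source 0.125% the library L3 stood at 186.96 CPM, among the source 0.5% libraries. Without that library 14 names were called, 11 with a higher and 3 with a lower step in slick oil, among them ola-miR-731, ola-miR-187, ccr-miR-454b and ola-let-7g. With any of the other 11 libraries left out the count was 0. For family totals edgeR called 0 of 79 (0%), with 13 (16.5%) at an unadjusted p under 0.05 and 6 called by DESeq2, and without the same library 10 families were called. In these plain totals the smallest p belonged to miR-124, at 290 ± 44.9 CPM in slick 2% and 222.4 ± 38.9 CPM in slick 0.5%. In source oil it averaged 336 ± 44.3 CPM at 0.5% and 103.4 ± 8.02 CPM at 0.125%. Its step in slick oil was below that in source oil (-1.32 ± 0.33, edgeR adjusted p = 0.173). With shared reads counted once edgeR again called 0 of 79 families, and the smallest p belonged to miR-466 (-3.33 ± 1.03, edgeR adjusted p = 0.194). In that form miR-124 stood at -1.17 ± 0.49 (edgeR adjusted p = 0.264), and its slick 0.5% libraries ran from 102.9 to 299.6 CPM.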

How the data were processed

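For each exposure the authors deposited 1 table of raw read counts by miRNA name, with 3 exposed and 3 control libraries. Aligner, counting tool and genome were not given in the sources used here. The submitters' processing notes name DESeq2. Count columns were joined to groups by their letter and table, since their numbers do not match the sample titles. Of 36 count columns 12 were not used, namely the control columns of the source tables, which repeat those of the slick tables, and the source 0.25% table. A name on more than 1 line kept its highest count per library.

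Tests used edgeR 4.0.16 (R 4.3.3, TMM factors, glmQLFit, glmQLFTest, Benjamini-Hochberg over all names or families tested, called at an adjusted p under 0.05). Standard errors were derived from the log2 fold change and the F statistic. Depth was 3407490 to 8284057 counts at 2% and 7692673 to 8736995 at 0.5%, and intervals cover the spread between libraries. Names with the same counts in all libraries entered a family total once. Alternatives were other scalings, filters and family sums, DESeq2 1.42.0, a replicate block, a fit over 12 libraries, and each library left out. The members, lists and tests were chosen with earlier results of these data known. Names given in the text are up to 12 higher and 12 lower names (8 families) with the smallest p and groups apart, the 10 most abundant, the 5 with the smallest p between oils, and names that earlier work on these files set apart from control. The names that follow a list or that DESeq2, a left-out library or a low count brings in were chosen after their values were seen. The test was also run on simulated counts with known changes, with results not given here.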

Additional observations from a re-analysis of the deposited data

Results flagged for a closer look

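Names listed in only 1 of the slick tables could not enter the comparison, and some of them were counted in all 3 libraries of their table at levels above the control libraries. Only in the 2% table were 45 names, 9 of them above 0 in its 3 libraries, and only in the 0.5% table were 43 names, 8 of them above 0 in its 3 libraries. In the 2% libraries oar-miR-30c had at least 2808.8 CPM against at most 2345 in control, ppy-miR-16 at least 202 against 178, and tni-miR-216a, of a pancreatic family, at least 47.6 while it stood at 0 in all controls. In the 0.5% libraries aca-miR-125a-5p had at least 628 CPM while it stood at 0 in all controls, and dre-miR-430a-3p at least 14734 against at most 13135. Only names above the control libraries are given here, so that order does not by itself show an effect of exposure. Reads of the families whose names stood at 0 in control were counted there under other names. The plain totals of miR-125 were 1213, 304 and 962 CPM in the 3 control libraries, and those of miR-216 were 111, 12560 and 54.7 CPM. Each name belongs to a family with 1 to 6 names in the other slick table. These values thus belong to names and do not show that a family differed between 2% and 0.5%, or from control.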

How the results depend on the processing

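The number of called names (0) stayed at 0 under 17 of 19 alternatives. DESeq2 called 4, and leaving out each library gave 0 to 7, with 7 without H6. For family totals it was 0 under 17 of 18 alternatives, leaving out each library gave 0, and DESeq2 called 2. For the difference between the oils' steps DESeq2 called 2 names and 6 families, and leaving out each library gave 0 to 14 names and 0 to 10 families, the highest without library L3 of source 0.125%. The cause of these shifts was not tested. With a replicate block by column number the counts were 0 names (11 at an unadjusted p under 0.05) and 0 families (5). The deviations of same-numbered libraries from their group means had correlations of -0.12, -0.03 and 0.07. With 3 libraries a group these cannot show whether the numbers pair the samples, and the labels do not say. No such block was possible between the oils, whose columns share no numbers. Under every alternative ola-miR-731 stayed lower (-1.19 to -0.89, adjusted p 0.00895 to 0.587) and ssa-miR-137-5p higher (0.98 to 1.54, adjusted p 0.00895 to 0.577). The name ipu-miR-107b stood at 0.37 with the highest of its repeated lines and -0.69 with their sum. Alternatives that counted shared reads once or took 1 name of each pair were chosen after the data were seen. With 3 libraries a group, 41 of 113 intervals left a 2-fold difference in range.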
